A study of Mus musculus with 2 samples.

Results

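T cell receptor signalling and tuning genes were followed in T cells found in a sort from mouse bone marrow that the labels call NKP, natural killer progenitors. The set had 9 members of the 32285 genes in the count tables, found by symbol: Lck, Lat, Lcp2, Grap2, Themis, Cd5, Cd6, Cd2 and Cd28. They were chosen from measured values, the ratios between the same libraries, so the ratios between libraries are a description and no test is made of them. Whether levels by T cell population entered the choice is not known, so the comparisons between populations, which are gated by other genes, are given as a description too.

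A T cell recognises antigen through the T cell receptor and its CD3 chains, which LCK, a SRC family kinase bound to the coreceptors, phosphorylates. The signal passes through the membrane adaptor LAT, to which GADS (the product of Grap2) brings the scaffold SLP-76 (the product of Lcp2). CD5, CD6 and THEMIS set how strongly a cell answers, and CD2 and CD28 are adhesion and costimulatory receptors.

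Per the labels, the cells came from mice lacking Irf4 (Irf4-/-) and from wild-type C57BL/6 (B6) mice (WT), with 1 library for each genotype. Per the series' design text the gate took CD122+ cells that were Lin-, Sca-1- and c-kit- and showed neither NK1.1 nor Ncr1. The labels do not give the animals' age, how many were pooled, or which part of Irf4 the allele lacks. With 1 library per genotype, a difference between genotypes cannot be told apart from a difference between libraries, and intervals below cover counting error only.

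The library labelled Irf4-/- kept 7955 of 8147 barcodes at a median of 9540 unique molecular identifiers (UMIs, counted RNA molecules), and the WT library kept 12367 of 12732 at a median of 7125. The libraries shared 27 barcodes. In the library labelled Irf4-/-, Irf4 RNA was not reduced: it had 803 UMIs, 9.77 per 1000000 UMIs (CPM), against 287 UMIs and 3.04 CPM in the WT library. A 3' count need not cover the deleted part. The sort label also differed from the RNA, since T cells made up 84.3% of the library labelled Irf4-/- and 90.3% of the WT library after filtering, defined here by UMIs of at least 2 of the 3 CD3 genes with fewer than 2 of Cd79a. Haemoglobin RNA, which T cells do not make, summed to 165 CPM in T cells of the library labelled Irf4-/- and 609 CPM in those of the WT library.

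T cells were split by genes outside the set. Gamma-delta T cells had at least 2 UMIs of Trdc and more of it than of Trac. Of the rest, cells with at least 2 UMIs of only 1 of Cd8b1 (the CD8 beta chain), Klre1 (a natural killer lectin receptor) or Fcer1g (an ITAM adaptor of Fc receptors) formed 3 populations, with multiple-positive and remaining cells besides. Cd8b1-positive cells made up 22.2% of T cells in the library labelled Irf4-/- (1490 cells) and 46.4% in the WT library (5180 cells). Klre1-positive cells made up 11.1% (743 cells) and 3.05% (341 cells) in the same order of libraries. Fcer1g-positive cells numbered 968 in the library labelled Irf4-/- and 1145 in the WT library, and gamma-delta T cells 785 and 1275.

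Over all T cells, 5 members were lower in the library labelled Irf4-/- than in the WT library by at least 0.32 on the log2 scale, the fold limit used throughout, and 4 were not. Of 11330 genes with at least 100 UMIs over both libraries, 6.85% were lower by that fold, and since the members were chosen on this contrast nothing is read from their count. None of the 9 was higher past the fold limit, against 10.8% of those genes. Over all kept cells, B cells included, the same 5 members passed, against 5.59% of 11789 genes. The members' median log2 ratio over T cells was -0.33, against 0.01 for all genes tested.

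The kinase and the adaptors next to it held nearly level. Lck had 340 CPM in T cells of the library labelled Irf4-/- and 359 CPM in those of the WT library, a log2 ratio of -0.08 (95% interval -0.10 to -0.05). Lat had 123 CPM in T cells of the library labelled Irf4-/- and 132 CPM in those of the WT library, a log2 ratio of -0.11 (-0.15 to -0.07). Lcp2 had 81.6 CPM in T cells of the library labelled Irf4-/- and 79.4 CPM in those of the WT library, a log2 ratio of 0.04 with an interval from -0.01 to 0.09. All 3 stayed within the fold limit, and the Lcp2 interval includes 0.

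Grap2 and Themis were lower. Grap2 had 75.2 CPM in T cells of the library labelled Irf4-/-, against 102 CPM in those of the WT library, a log2 ratio of -0.45 (-0.49 to -0.40). Themis, needed for positive selection in the mouse thymus, had 77.8 CPM in T cells of the library labelled Irf4-/-, against 104 CPM in those of the WT library, a log2 ratio of -0.43 (-0.47 to -0.38). Grap2 thus differed between libraries while the partners that its product joins, Lat and Lcp2, stayed within the fold limit.

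The inhibitory scavenger receptor family pair was also lower. Cd5 had 72.6 CPM in T cells of the library labelled Irf4-/- and 97.1 CPM in those of the WT library, a log2 ratio of -0.42 (-0.47 to -0.37). Cd6 had 49.7 CPM in T cells of the library labelled Irf4-/- and 65.7 CPM in those of the WT library, a log2 ratio of -0.40 (-0.46 to -0.34). The 2 genes are neighbours on the minus strand of chromosome 19, 50338 bases apart, Cd5 at chr19:10717116-10739002 and Cd6 at chr19:10789341-10830058 (GENCODE M21, GRCm38).

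The costimulatory receptors parted. Cd28, the receptor of CD80 and CD86, had 85.5 CPM in T cells of the library labelled Irf4-/- and 107 CPM in those of the WT library, a log2 ratio of -0.33 (-0.37 to -0.28). Cd2, an adhesion receptor that in the mouse binds CD48, had 252 CPM in T cells of the library labelled Irf4-/- and 262 CPM in those of the WT library, a log2 ratio of -0.06 (-0.08 to -0.03). Among T cells of 6000 to 10000 UMIs Cd2 was higher, at 0.09 (0.05 to 0.14). Cd28 lay just past the fold limit and Lat, at -0.11, was the nearest member short of it.

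Promoter sequences are shown for 3 of the 5 lower members and, for contrast, for Lcp2, each as the 250 bases before a RefSeq transcript start on GRCm38.p6, read 5′ to 3′ on the gene's strand. RefSeq entries were found for 6 of the 9 members. Capitals mark GGAA on either strand, the core that ETS factors bind, since ETS factors are among the partners of IRF4.
Themis (chr10:28668110-28668359, plus strand): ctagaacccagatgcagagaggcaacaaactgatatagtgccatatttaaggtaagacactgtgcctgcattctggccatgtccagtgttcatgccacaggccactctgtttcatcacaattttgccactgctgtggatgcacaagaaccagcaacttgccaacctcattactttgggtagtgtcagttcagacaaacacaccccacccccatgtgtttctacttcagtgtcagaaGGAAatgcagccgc
Grap2 (chr15:80623233-80623482, plus strand): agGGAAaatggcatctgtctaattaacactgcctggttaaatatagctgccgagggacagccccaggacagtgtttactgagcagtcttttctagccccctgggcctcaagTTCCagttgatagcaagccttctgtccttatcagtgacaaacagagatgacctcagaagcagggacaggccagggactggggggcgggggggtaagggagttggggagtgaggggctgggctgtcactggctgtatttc
Cd5 (chr19:10738975-10739224, minus strand): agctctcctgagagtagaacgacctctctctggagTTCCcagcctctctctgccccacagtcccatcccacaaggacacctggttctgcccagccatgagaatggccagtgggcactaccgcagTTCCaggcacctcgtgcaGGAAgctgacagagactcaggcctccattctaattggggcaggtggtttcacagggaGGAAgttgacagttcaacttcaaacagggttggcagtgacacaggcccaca
Lcp2 (chr11:34046678-34046927, plus strand): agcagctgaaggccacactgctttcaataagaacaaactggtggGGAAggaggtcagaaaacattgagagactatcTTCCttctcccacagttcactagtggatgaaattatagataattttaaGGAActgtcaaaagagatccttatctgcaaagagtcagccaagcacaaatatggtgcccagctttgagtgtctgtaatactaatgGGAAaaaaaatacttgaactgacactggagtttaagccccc
Grap2's RefSeq start lies within the GENCODE gene (chr15:80572594-80652854), downstream of that annotation's start. GGAA occurred 1 time in the Themis window, 2 times in Grap2, 4 times in Cd5 and 4 times in Lcp2. It is common: 93.4% of 27025 promoter windows held it. The ETS-IRF composite core GGAANNGAA was in none of the windows of these 4 genes and in 7.03% of all windows, and the interferon response core GAAANNGAA was in none of the 4 and in 7.16% of all. The E-box CAGNTG was in each of the 4 windows printed and in 44.5% of all windows, but not in a second RefSeq window of Themis (chr10:28668145-28668394). A match of letters is no binding site, and its absence says nothing of a factor.

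**Figure D1:**
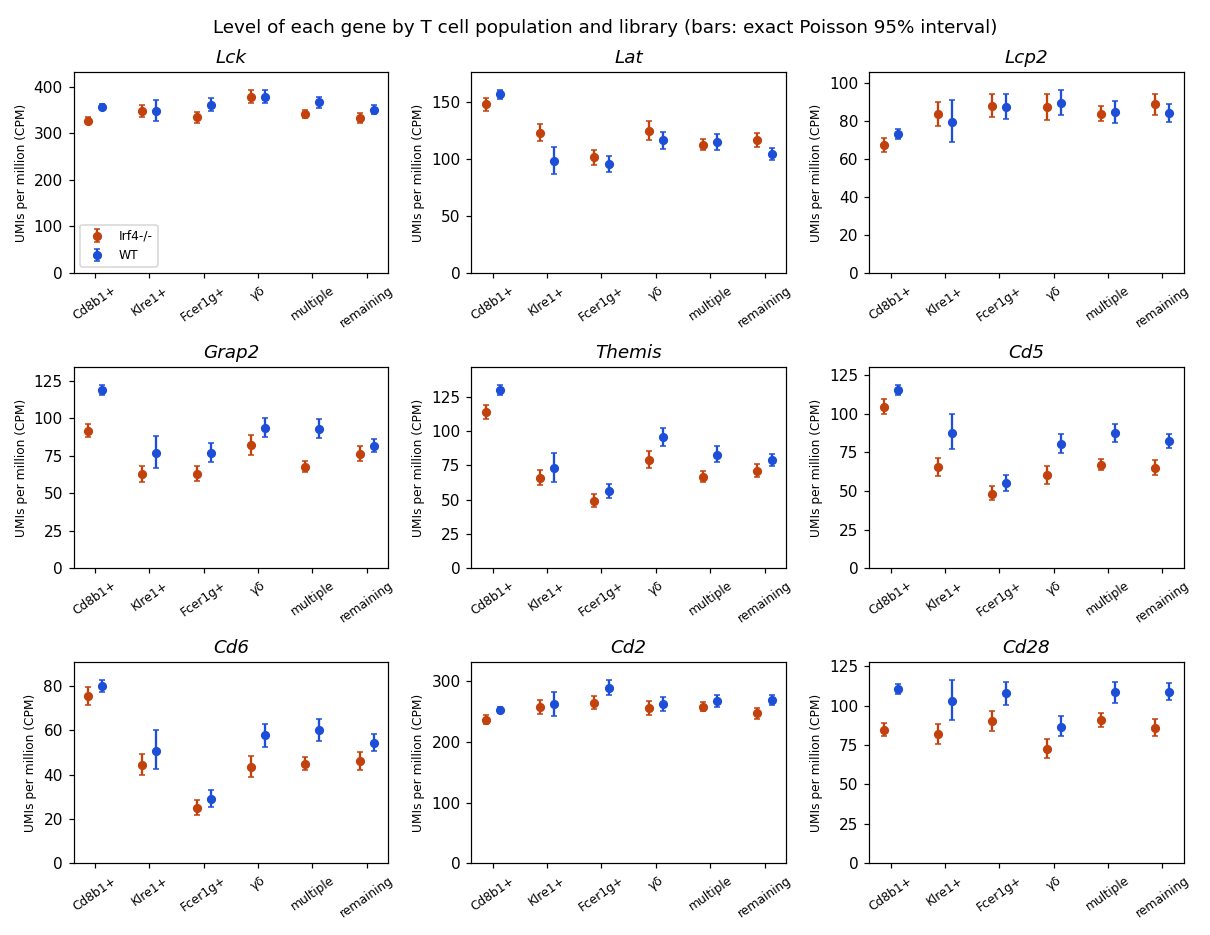
CPM of each gene (vertical axis) in 6 T cell populations (horizontal axis) of the library labelled Irf4-/- (orange, left) and the WT library (blue, right), with exact Poisson 95% intervals. Themis, Cd5, Cd6, Grap2 and Lat are highest in Cd8b1-positive cells of both libraries, while Lck and Cd2 are nearly flat.

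The members differed in how much they vary between T cell types. Across 8 profiles (Cd8b1-positive, Klre1-positive, Fcer1g-positive and gamma-delta T cells in each library), the highest level exceeded the lowest by 3.19-fold for Cd6, 2.64-fold for Themis, 2.39-fold for Cd5 and 1.90-fold for Grap2. The range was 1.64-fold for Lat, 1.52-fold for Cd28 and 1.33-fold for Lcp2. It was 1.22-fold for Cd2 and 1.16-fold for Lck. The order thus ran from the tuning genes to the kinase, and Cd2 and Lck at its lower end differ by little. These ranges include the difference between libraries, on which the members were chosen, so the order is not one by T cell type alone. Grap2 was highest in Cd8b1-positive cells of the WT library (119 CPM) and lowest in Klre1-positive cells of the library labelled Irf4-/- (62.7 CPM).

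Fcer1g-positive cells stood farthest from Cd8b1-positive cells. Cd6 had 25.0 CPM in Fcer1g-positive and 75.2 CPM in Cd8b1-positive cells of the library labelled Irf4-/-, and 29.1 and 79.7 CPM in those of the WT library, log2 ratios of -1.59 and -1.45. Themis had 49.3 CPM in Fcer1g-positive and 114 CPM in Cd8b1-positive cells of the library labelled Irf4-/-, a log2 ratio of -1.21 (-1.36 to -1.06). In the WT library Themis had 55.9 CPM in Fcer1g-positive and 130 CPM in Cd8b1-positive cells, a ratio of -1.22 (-1.36 to -1.08). All these intervals lie far below 0.

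Cd5 followed, at log2 ratios of -1.11 in the library labelled Irf4-/- and -1.06 in the WT library for Fcer1g-positive over Cd8b1-positive cells. Lat was lower too, at -0.55 and -0.71, and Grap2 at -0.54 and -0.62. In each library 5 of 9 members were lower past the fold limit, against 4.99% of genes in the library labelled Irf4-/- and 6.86% in the WT library. Lcp2 ran the other way, with 88.2 CPM in Fcer1g-positive and 67.5 CPM in Cd8b1-positive cells of the library labelled Irf4-/-, a ratio of 0.39 (0.26 to 0.52). In the WT library Lcp2 had 87.5 CPM in Fcer1g-positive and 73.2 CPM in Cd8b1-positive cells, a ratio of 0.26 (0.14 to 0.38).

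Genes higher past the fold limit in Fcer1g-positive cells made up 22.7% of those tested in the library labelled Irf4-/- and 21.8% in the WT library, and the median of genes with at least 100 UMIs in both populations was 0.16 in each. Relative to that median the Lcp2 ratios were 0.23 and 0.10. The neutrophil gene S100a8 was in the Fcer1g-positive cells at 44.0 CPM in the library labelled Irf4-/- and 1.02 CPM in the WT library. Without cells holding 2 UMIs of S100a8 or S100a9, the ratio of the libraries in Fcer1g-positive cells was -0.18 for Themis and -0.29 for Grap2, as with them. That left 966 of 968 cells in the library labelled Irf4-/- and 1143 of 1145 in the WT library, so the ratios could hardly change. The part of neutrophil RNA in them was not tested.

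Klre1-positive cells, alpha-beta T cells with this lectin receptor and little Cd8b1, showed smaller differences for Themis, Cd5 and Cd6 and about the same for Grap2. Themis had 66.0 CPM in Klre1-positive and 114 CPM in Cd8b1-positive cells of the library labelled Irf4-/-, and 72.9 and 130 CPM in those of the WT library, log2 ratios of -0.79 and -0.83. Cd6 gave -0.76 and -0.65, and Grap2 -0.55 and -0.63. Lower past the fold limit were 4 members in the library labelled Irf4-/- and 5 in the WT library, against 7.67% and 11.1% of genes. No member was higher by that fold, against 14.8% and 17.9% of genes.

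Cd5 and Lat differed most between the libraries in this contrast. Cd5 was at -0.68 (-0.82 to -0.54) in the library labelled Irf4-/- and -0.39 (-0.59 to -0.20) in the WT library, with overlapping intervals. Lat was at -0.27 (-0.38 to -0.16) in the library labelled Irf4-/- and -0.67 (-0.86 to -0.50) in the WT library, with intervals that do not overlap. Cells with at least 2 UMIs of both Cd8b1 and Klre1 had Themis at 91.9 CPM in the library labelled Irf4-/- and 100 CPM in the WT library, between the levels of the cells with only 1 of them.

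Gamma-delta T cells had less Cd5, Cd6 and Themis than Cd8b1-positive cells. Cd5 had 60.2 CPM in gamma-delta and 104 CPM in Cd8b1-positive cells of the library labelled Irf4-/-, a log2 ratio of -0.80 (-0.95 to -0.65). In the WT library Cd5 had 80.6 CPM in gamma-delta and 115 CPM in Cd8b1-positive cells, a ratio of -0.52 (-0.63 to -0.40). Cd6 was at -0.79 in the library labelled Irf4-/- and -0.47 in the WT library, and Themis at -0.53 and -0.44.

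Lower past the fold limit were 3 members in the library labelled Irf4-/- (5.77% of genes) and 6 in the WT library (7.08% of genes). With counts scaled by the median gene, or without mitochondrial and ribosomal genes, 6 members passed in the library labelled Irf4-/- as well, where 13.1% and 12.6% of genes did. Lcp2 was higher past the fold limit in gamma-delta T cells of the library labelled Irf4-/-, at 0.37 where 26.5% of genes passed, and at 0.29 in the WT library where 24.2% of genes passed. The median over genes was 0.18 in both libraries, and relative to it the Lcp2 ratios were 0.19 and 0.12. Lck had 378 CPM in gamma-delta T cells of both libraries, and its ratio over Cd8b1-positive cells, 0.21 in the library labelled Irf4-/- and 0.09 in the WT library, became 0.03 and -0.09 relative to that median.

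**Figure D2:**
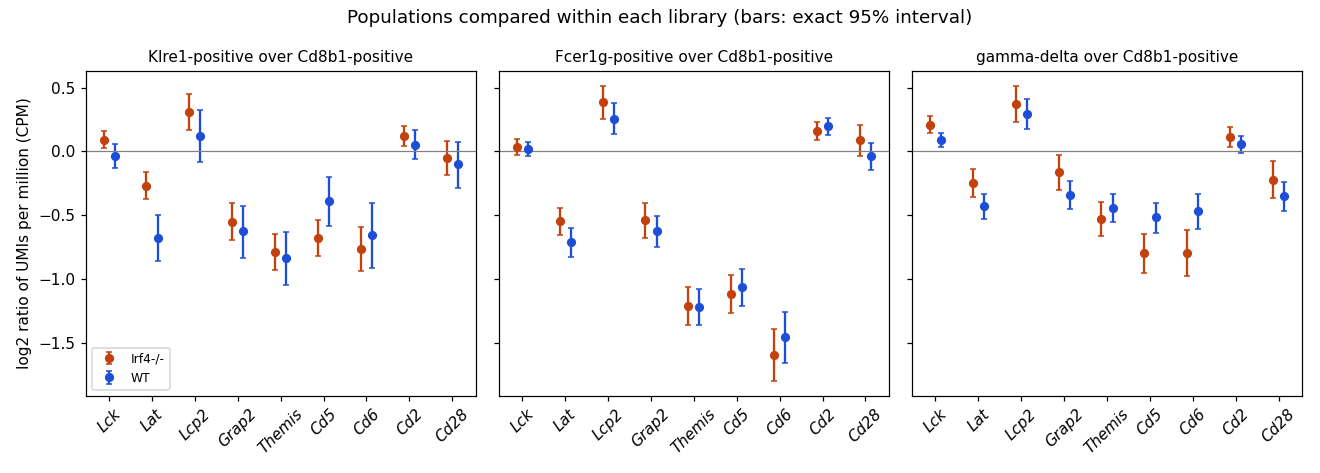
Log2 ratio of CPM of each gene in Klre1-positive, Fcer1g-positive and gamma-delta T cells over Cd8b1-positive T cells of the same library, the library labelled Irf4-/- in orange (left) and WT in blue (right), with exact 95% intervals. Cd6, Themis and Cd5 lie lowest in Fcer1g-positive cells, at -1.59 to -1.06, and Lcp2 lies above 0 in all 3 panels, though its interval reaches below 0 in Klre1-positive cells of the WT library.

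Within populations the ratios of the libraries were smaller than over all T cells for several members. In Cd8b1-positive cells 2 members, Grap2 and Cd28, were lower past the fold limit, where 7.98% of genes were. Grap2 had 91.7 CPM in Cd8b1-positive cells of the library labelled Irf4-/- and 119 CPM in those of the WT library, a log2 ratio of -0.37 (-0.46 to -0.29). Cd28 had 84.6 CPM in Cd8b1-positive cells of the library labelled Irf4-/- and 110 CPM in those of the WT library, a ratio of -0.38 (-0.47 to -0.30). Themis was at -0.19 (-0.26 to -0.12), Cd5 at -0.14 (-0.22 to -0.07) and Cd6 at -0.08, with an interval from -0.18 to 0.01.

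Ccr7, a homing receptor of naive and central memory T cells, did not separate the Grap2 and Cd28 ratios. In Cd8b1-positive cells with Ccr7 the ratios were -0.36 for Grap2 and -0.40 for Cd28, and in those without a Ccr7 UMI they were -0.40 and -0.36. Depth moved with the Cd28 ratio: Cd8b1-positive cells had a median of 11149 UMIs in the library labelled Irf4-/- and 7943.5 in the WT library. Among those of 6000 to 10000 UMIs (440 and 3546 cells) Cd28 was at -0.11, with an interval from -0.27 to 0.04, and Grap2 at -0.42 (-0.58 to -0.26). Whether depth accounts for the Cd28 difference was not tested.

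In Klre1-positive cells Cd5 and Cd28 were lower past the fold limit, at -0.43 (-0.65 to -0.20) and -0.33 (-0.54 to -0.13), where 9.32% of genes were. In Klre1-positive cells of 6000 to 10000 UMIs, Cd28 was at -0.13 (-0.42 to 0.16), short of the limit, and Cd5 (-0.42), Themis (-0.36) and Grap2 (-0.49) were past it, where 7.18% of genes were. Haemoglobin RNA summed to 4.24 CPM in Klre1-positive cells of the library labelled Irf4-/- and 1212 CPM in those of the WT library, and its part in these ratios was not tested. Lat was higher in Klre1-positive cells, with 123 CPM in the library labelled Irf4-/- and 98.0 CPM in the WT library, a ratio of 0.32 (0.13 to 0.53), where 10.8% of genes were higher past the fold limit. The Lat ratio in these cells ran from 0.04, where populations could share cells, to 0.47, in cells of 6000 to 10000 UMIs. In Fcer1g-positive cells no member was past the fold limit, lower or higher, where 6.36% and 7.70% of genes were. The lowest there was Grap2, with 63.1 CPM in the library labelled Irf4-/- and 77.1 CPM in the WT library, at -0.29 (-0.46 to -0.12).

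In gamma-delta T cells the tuning receptors differed most. Cd5 had 60.2 CPM in gamma-delta T cells of the library labelled Irf4-/- and 80.6 CPM in those of the WT library, a ratio of -0.42 (-0.60 to -0.25). Cd6 had 43.3 CPM in gamma-delta T cells of the library labelled Irf4-/- and 57.6 CPM in those of the WT library, a ratio of -0.41 (-0.62 to -0.20). These 2 members were lower past the fold limit where 7.37% of genes were, and none was higher where 8.77% were. Haemoglobin RNA summed to 7.61 CPM in gamma-delta T cells of the library labelled Irf4-/- and 1489 CPM in those of the WT library, and its part in these ratios was not tested. Cd8b1, which the gamma-delta gate does not read, was at 32.5 CPM in the library labelled Irf4-/- and 79.8 CPM in the WT library. The part of Cd8b1-expressing cells in these ratios was not tested either.

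Multiple-positive cells had 3 members lower past the fold limit (Grap2 at -0.46, Cd6 at -0.42 and Cd5 at -0.38), where 8.40% of genes were. The libraries mixed their kinds unequally: 767 and 293 cells (Irf4-/-, WT) had Klre1 with Fcer1g, and 475 and 351 Cd8b1 with Klre1. In these kinds, in that order, Cd6 was at -0.20 and -0.16, Cd5 at -0.37 and -0.17, and Grap2 at -0.18 and -0.49. Cd6 was at -0.55 in cells with Cd8b1 and Fcer1g and -0.52 in those with all 3. The part of this mix was not tested. Remaining T cells had 2 members lower past the fold limit (Cd28 at -0.34 and Cd5 at -0.33), where 7.75% of genes were. Across the 6 populations Cd28, Grap2, Cd5, Cd6 and Themis had a log2 ratio below 0 in each, from -0.46 to -0.08, so the direction over all T cells was also that of every population. In 4 of the alternatives it was not: Themis in Klre1-positive cells was at 0.02 with a gate of 1 UMI and 0.10 with a gate on thinned counts, and in cells of 6000 to 10000 UMIs Cd6 in Cd8b1-positive cells was at 0.01 and Grap2 in gamma-delta T cells at 0.09.

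**Figure D3:**
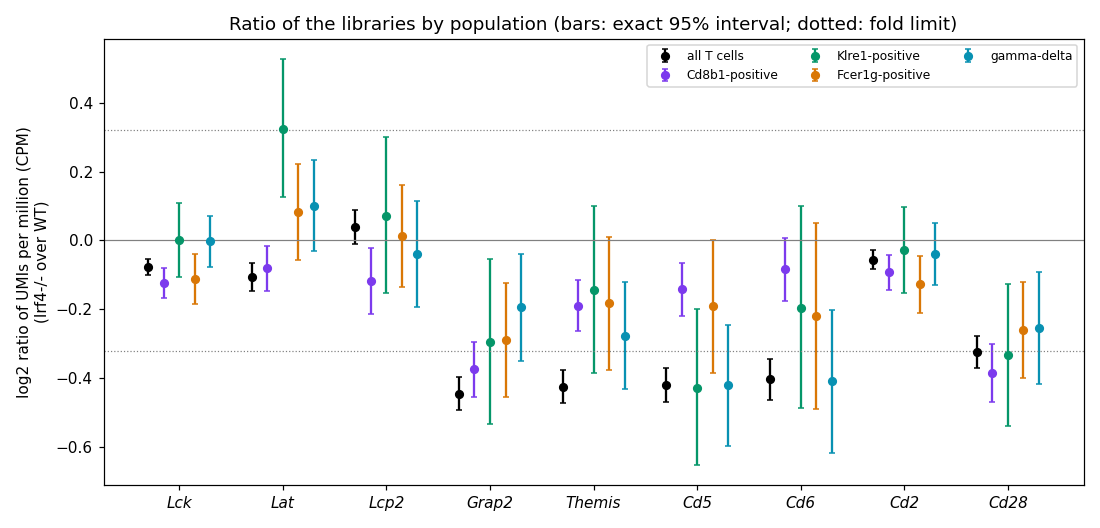
Log2 ratio of the libraries (labelled Irf4-/- over WT) in CPM for each gene in all T cells (black) and in 4 populations, with exact 95% intervals and dotted lines at 0.32 either way. Themis and Cd6 are lower over all T cells (-0.43 and -0.40) than in Cd8b1-positive cells (-0.19 and -0.08), and Cd28 is alike in both (-0.33 and -0.38).

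The libraries filled the populations unequally. Themis, Cd5, Cd6, Grap2 and Lat were highest in Cd8b1-positive cells. These cells made up less of the T cells in the library labelled Irf4-/- than in the WT library. The ratio was therefore also computed with each of the 6 populations given the same share in both libraries. Multiple-positive cells were not split by kind there, so their mix was not held. Themis was then at -0.20 (-0.26 to -0.15) against -0.43 pooled, and Cd6 at -0.20 (-0.27 to -0.14) against -0.40 pooled. Cd5 was at -0.26 and Grap2 at -0.30, both nearer 0 than their pooled ratios of -0.42 and -0.45. Cd28 hardly moved, at -0.32 (-0.37 to -0.27) against -0.33.

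With composition held only Cd28 remained past the fold limit, by a small margin, and with the shares of the library labelled Irf4-/- as weights none did. Of the members outside the fold, Lat was at 0.03 held against -0.11 pooled, Lcp2 at -0.02, Lck at -0.09 and Cd2 at -0.09.

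**Figure D4:**
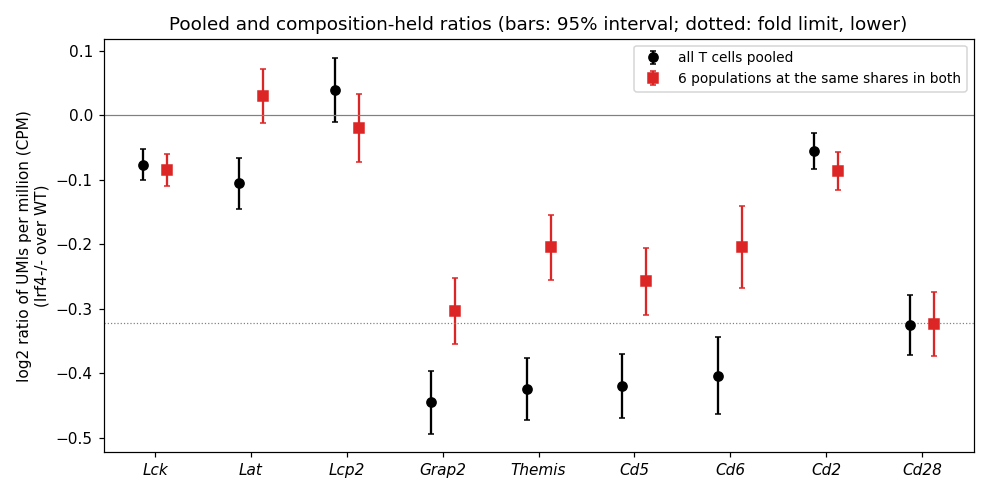
Log2 ratio of the libraries (labelled Irf4-/- over WT) in CPM over all T cells pooled (black circles) and with 6 T cell populations given the same shares in both libraries (red squares), with 95% intervals and a dotted line at -0.32. The ratios of Themis and Cd6 shrink to -0.20 each, and that of Cd28 stays at -0.32.

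Shares of positive cells were compared at equal depth. After thinning each cell to 2000 UMIs, Themis was detected in 13.5% of T cells of the library labelled Irf4-/- (12.7% to 14.3%) and in 17.9% of those of the WT library (17.2% to 18.7%). Without thinning the shares were 47.7% and 48.7%, at median depths of 9915.5 and 7252 UMIs. In B cells, which should lack Themis, thinned shares were 0.0978% and 0.345%, at median depths of 4155 and 2973 UMIs.

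Grap2 was in 13.5% of thinned T cells of the library labelled Irf4-/- and 18.7% of those of the WT library (51.5% and 50.8% unthinned). Cd5 was in 12.3% of thinned T cells of the library labelled Irf4-/- and 16.6% of those of the WT library (46.2% and 46.9% unthinned). Cd6 was in 8.60% of thinned T cells of the library labelled Irf4-/- and 11.5% of those of the WT library (35.9% and 35.5% unthinned). For each of these genes the 2 intervals, which cover counting error only, were apart. The members were chosen on the ratios between the same libraries, so nothing further is read from these gaps.

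Cd28 was in 14.8% of thinned T cells of the library labelled Irf4-/- and 18.6% of those of the WT library (52.8% and 50.6% unthinned). Lck was in 50.2% and 51.5%, Cd2 in 40.2% and 40.6%, Lat in 21.9% and 22.3%, and Lcp2 in 15.3% and 15.0% of thinned T cells of the library labelled Irf4-/- and the WT library. Without thinning, Lcp2 was in 54.0% of T cells of the library labelled Irf4-/- and 43.0% of those of the WT library. None of Themis, Grap2, Cd5, Cd6 and Cd28 was detected in 52.0% of thinned T cells of the library labelled Irf4-/-, against 41.3% in the WT library. These genes are the members that were lower past the fold limit over the same T cells, so this gap is no further result.

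Single thinnings of the small populations moved with the random draw, so the expected share over all thinnings is given there. Cd6 was expected in 8.21% of gamma-delta T cells of the library labelled Irf4-/- and 10.6% of those of the WT library. Cd5 was expected in 12.2% of Klre1-positive cells of the library labelled Irf4-/- and 16.2% of those of the WT library. Lat was expected in 21.6% of Klre1-positive cells of the library labelled Irf4-/- and 16.6% of those of the WT library.

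B cells, with at least 2 UMIs of Cd79a and UMIs of at most 1 CD3 gene, had 4 members near 0 and UMIs of the other 5. Themis, Cd5, Cd6 and Cd28 had between 2 and 6 UMIs each in the B cells of either library. Lck was at 7.92% of its T cell level in B cells of the library labelled Irf4-/- and 4.44% in those of the WT library, Lcp2 at 4.60% and 2.92%, and Lat at 3.62% and 2.41%. Cd2 had 94.6 CPM in B cells of the library labelled Irf4-/- and 165 CPM in those of the WT library. Grap2 had 38.4 CPM in B cells of the library labelled Irf4-/- and 53.5 CPM in those of the WT library, 51.0% and 52.3% of its level in T cells. For comparison, the receptor chain gene Trac was in B cells at 1.26% and 0.904% of its T cell level. In the same B cells haemoglobin RNA summed to 11.3 CPM in the library labelled Irf4-/- and 2384 CPM in the WT library, and 7 neutrophil and myeloid genes to 402 and 82.8 CPM, with Elane at 191 and 0 CPM and Mpo at 123 and 0 CPM. Their part in the B cell levels was not tested.

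The wider pathway was read from 6 lists of its genes, over all T cells pooled, with the mix of populations not held. None of the 7 receptor complex genes and none of the 13 proximal kinase and phosphatase genes was past the fold limit over all T cells in either direction. Of 16 adaptor genes tested 4 were lower, Grap2 and Themis together with Trat1 at -0.48 and Sit1 at -0.37, both transmembrane adaptors (Sit1 was named after its value was seen). Trat1 had 14.2 CPM in T cells of the library labelled Irf4-/- and 19.7 CPM in those of the WT library. Of 17 negative tuning genes Cd5 and Cd6 were lower and Dok2, a docking protein, was higher at 0.55, with 64.6 CPM in T cells of the library labelled Irf4-/- and 44.2 CPM in those of the WT library. By population Dok2 was at 0.24 in Cd8b1-positive, 0.49 in Klre1-positive, 0.25 in Fcer1g-positive and 0.42 in gamma-delta T cells.

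Of 15 costimulation and adhesion genes 4 were lower. Besides Cd28 these were the checkpoint receptors Ctla4 at -1.25 and Pdcd1 at -1.04 and the receptor Tnfrsf4 at -0.41, all under 6 CPM in both libraries. Their ratios differed in sign between populations. At such low levels counting error is wide, and these ratios are given without intervals, so no difference in direction is read from them. Ctla4, Pdcd1 and Tnfrsf4 were at -1.16, -2.49 and -0.22 in Cd8b1-positive and -1.59, -0.01 and -2.76 in Klre1-positive cells. In Fcer1g-positive cells they were at 2.56, 0.23 and 0.01, and in gamma-delta T cells at 0.60, 0.21 and 0.31. Tnfrsf9, an activation-induced receptor, was higher at 0.87, with 8.70 CPM in T cells of the library labelled Irf4-/- and 4.77 CPM in those of the WT library. By population Tnfrsf9 was at 0.31 in Cd8b1-positive, 1.98 in Klre1-positive, 0.25 in Fcer1g-positive and 0.42 in gamma-delta T cells. Of 21 genes of the calcium, RAS, PKC and NF-kB branch, the calcium channel Orai1 was lower at -0.33 and the calcineurin subunit Ppp3cc higher at 0.36. Without the members, 6 of 79 list genes (7.59%) were lower, a share near the 6.85% of all genes, and 3 (3.80%) were higher, where 10.8% of all genes were. Their median was -0.00026.

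Genes with profiles most like the 4 most variable members were looked up among 2133 genes over the same 8 profiles, which share 2 libraries and depth, so the correlations are a description. Themis was followed most closely by Klk8 (Pearson r = 0.995), Bcl11b, a T lineage transcription factor (0.958), and Cd8b1 (0.953), which is a gate gene. Cd6 was followed by Klk8 (0.954), Emg1 (0.943) and the chromatin organiser Satb1 (0.938). Cd5 was followed by Satb1 (0.970), Cmah (0.957) and Gpatch4 (0.929), and Grap2 by Saraf (0.962), Arl5c (0.955) and Nop53 (0.939).

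Other RNA moved with the libraries in the T cells. Summed levels over T cells of the library labelled Irf4-/- and the WT library were 918 and 554 CPM for 5 natural killer lectin receptor genes, 384 and 688 CPM for Cd8a with Cd8b1, and 252 and 131 CPM for Mki67 with Top2a. Cd4 was near 0, at 0.410 and 0.990 CPM. Haemoglobin RNA was not higher in the WT library in every population. In multiple-positive cells it summed to 350 CPM in the library labelled Irf4-/- and 10.4 CPM in the WT library. In the same order it summed to 196 and 670 CPM in Cd8b1-positive, 8.80 and 557 CPM in Fcer1g-positive and 148 and 235 CPM in remaining cells. Without cells holding a UMI of Mki67 or Top2a the ratios over T cells were -0.41 for Themis, -0.41 for Grap2, -0.40 for Cd5 and -0.30 for Cd28, the last then short of the fold limit.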

How the data were processed

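NKP cells of bone marrow, 1 Irf4-/- and 1 WT library, were profiled with a 10x Genomics 3' kit. The labels' protocols describe a sort of cells but a suspension of nuclei. The authors deposited UMI counts, whole numbers for each gene and barcode, from Cell Ranger 6.1.1 per the file headers. The submitters' processing notes name mm10 and no annotation release. Depth was 82599767 UMIs in the library labelled Irf4-/- and 95031071 in the WT library.

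Cells with at least 500 genes, at least 1000 UMIs and under 10% mitochondrial UMIs were kept. No doublet caller was run: a cell with CD3 genes and 2 UMIs of Cd79a entered no T cell population, and doublets of 2 T cells were not removed. Counts were summed per library and population, scaled to CPM with exact Poisson 95% intervals, and compared as log2 ratios with exact conditional binomial intervals. Composition was held with the mean shares of 6 populations. Shares used cells thinned to 2000 UMIs, leaving out 35 and 71 kept cells, with exact Clopper-Pearson intervals. Intervals cover counting error only. Those of the log2 ratios were checked on counts simulated with Poisson error alone, which cannot show the spread between cells or libraries. With 1 library per genotype no test was made. The members, gates and lists were chosen with earlier results of these data known. Named genes were the members, up to 3 lowest and 3 highest past the fold limit of each list, and the 3 genes most like each of the 4 most variable members. Alternatives covered gates, scaling, filters, folds, thinning and weights. Python 3.11.15, numpy 2.4.6, scipy 1.17.1, pandas 2.3.3 and matplotlib 3.10.9 were used.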

Additional observations from a re-analysis of the deposited data

Results flagged for a closer look

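Lat ran in opposite directions in 2 populations, at a log2 ratio (library labelled Irf4-/- over WT library) of 0.32 in Klre1-positive and -0.081 in Cd8b1-positive T cells, with counting intervals on opposite sides of 0. The difference was not tested.

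Members had signal in B cells, which the T cell comparisons leave out, above the share that Trac, Trbc1 and Trbc2 had there in both libraries. Grap2 was at 38.4 CPM in the library labelled Irf4-/- and 53.5 CPM in the WT library. Lck was at 26.9 CPM in the library labelled Irf4-/- and 15.9 CPM in the WT library. Cd2 was at 94.6 CPM in the library labelled Irf4-/- and 165 CPM in the WT library. Differences between the libraries were not tested.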

How the results depend on the processing

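No paired analysis was possible because each genotype has 1 library, and none could be left out. The gates on Cd8b1, Klre1 and Fcer1g do not enter the pool of all T cells, so other gates could not change its values. With composition held, Themis (-0.20), Cd6 (-0.20), Cd5 (-0.26) and Grap2 (-0.30) fell short of the fold limit, and Cd28 (-0.32) did not. Over all T cells pooled, the 5 lower members stayed lower past the limit under every other scaling, filter and weighting of cells, except Cd28. Cd28 was short of it with cells weighted equally (-0.31), without the 5% deepest cells (-0.31) and in cells of 6000 to 10000 UMIs (-0.22). It was also short of it without cells with Mki67 or Top2a (-0.30). The share of all genes lower past the limit in use stands below as background. At 1.5-fold (0.930% to 2.18% of genes between libraries, 1.73% to 5.20% between populations), 0 members were lower over all kept cells, all T cells, Cd8b1-positive, Klre1-positive, gamma-delta, multiple-positive and remaining cells, 3 in Fcer1g-positive over Cd8b1-positive cells of the library labelled Irf4-/-, and 0 in gamma-delta over Cd8b1-positive cells of the WT library. At 1.1-fold (18.6% to 28.9%, and 13.3% in gamma-delta over Cd8b1-positive cells) there were 4 in Cd8b1-positive, 5 in Klre1-positive, 5 in Fcer1g-positive, 5 in gamma-delta, 5 in multiple-positive and 4 in remaining cells, and 6 in gamma-delta over Cd8b1-positive cells of the library labelled Irf4-/-. Cells of 6000 to 10000 UMIs gave 1 in Cd8b1-positive (8.39%) and 0 in remaining cells (5.47%), and 5 (3.69%) in gamma-delta over Cd8b1-positive cells of the library labelled Irf4-/-, where median scaling and scaling without mitochondrial and ribosomal genes gave 6 (13.1% and 12.6%). Gates of 1 and 3 UMIs gave 1 and 4 in Klre1-positive (9.18% and 9.24%) and 1 each in remaining cells (10.7% and 6.58%), and 3 UMIs gave 2 in Fcer1g-positive cells (7.75%). There, shared cells gave 3 (7.69%), the thinned gate 1 (8.67%) and equal weights 1 (7.71%). Remaining cells had 4 with the thinned gate (6.06%) and 1 each with median scaling (6.68%), equal weights (8.73%) and no cycling cells (7.96%). Composition held with the shares of the library labelled Irf4-/- left 0. Among values past the fold limit, reversed in sign were the Cd28 share ratio in Klre1-positive cells with another seed (0.044) and, in B cells split by Vpreb1, Grap2 without it (0.015), and Lck (-0.27) and Cd2 (1.21) with it. The B cell intervals, in that order, were -0.28 to 0.31, -1.08 to 0.65 and -0.20 to 3.12. Each includes 0, so no reversal is shown there. The cause was not tested. Of values short of the limit, 79 of 942 recomputed CPM ratios and 22 of 116 recomputed share ratios changed sign, among them Cd2 in cells of 6000 to 10000 UMIs, at 0.09 over T cells and 0.14 in Cd8b1-positive cells, with intervals above 0. Of the single-gene results 1566 kept their value within error and 207 moved. Those that kept it include values over all kept cells and all T cells under other gates, which could not change. The splits by depth, cycling genes, Vpreb1, CD3 UMIs in B cells and kinds of multiple-positive cells were added after seeing the data. So were the exclusion of cells with S100a8 or S100a9, a higher minimum of UMIs per gene and the expected shares.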

Other observations

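B cells were split by Vpreb1, a surrogate light chain gene of precursor B cells, after their values were seen. Cells with a Vpreb1 UMI numbered 307 in the library labelled Irf4-/- and 17 in the WT library, and cells without one 732 and 887. In cells without one, Grap2 was at 57.7 CPM in the library labelled Irf4-/- and 57.1 CPM in the WT library, and Cd2 at 128 and 177 CPM. In cells with one, Grap2 was at 5.53 and 8.08 CPM, from 12 and 2 UMIs, and Lck at 47.0 and 56.5 CPM, from 102 and 14 UMIs. Cd2 was at 37.3 and 16.2 CPM there, from 81 and 4 UMIs. Grap2 and Cd2 were thus higher in the B cells without Vpreb1 and Lck in those with it, in both libraries.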
